A study of Mus musculus with 6 samples.

Results

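Among the small RNAs of mouse macrophage exosomes, 9 names form a group of poorly conserved rodent entries: miR-3473b, miR-3473e, miR-3473f, miR-5128, miR-706, miR-709, miR-1946a, miR-1946b and miR-1195. They are 9 of the 707 microRNA (miRNA) names in the series' table of raw counts. They were chosen by name because their counts lay mostly in the WT libraries, so their difference between genotypes is what selected them. That difference is described here with counts and counting intervals and carries no test. The rule sets no numerical limit, so no name stands just inside or just outside it.

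The series compared exosomes, small vesicles that cells shed, collected from culture supernatants of Roquin-1 san:san and of WT macrophages grown from bone marrow. Each genotype has 3 libraries, both genotypes are on the C57BL/6 background, and the labels name no stimulus and no age. Roquin-1 recognises hairpin structures of messenger RNAs and targets those transcripts for degradation. The san:san genotype carries the sanroque mutation on both copies of the Roquin-1 gene. The labels do not say whether libraries came from separate mice or cultures, so spreads and p-values reflect these samples and may be technical.

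A canonical miRNA is cut from a hairpin by the nucleases Drosha and Dicer, often leaves a product from each arm, and is loaded into an Argonaute protein, where bases 2 to 8, the seed, select target messenger RNAs. Mouse and rat miRNA catalogues also hold names found by sequencing in rodents alone. Several of these lie in short interspersed repeats, which occur in very many copies in rodent genomes and in the introns and ends of messenger RNAs. For such names it is in doubt whether a read is a processed miRNA or a piece of a longer repeat-bearing transcript. Little is established about what most of the 9 do. miR-709 has been described in mouse cell nuclei.

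RefSeq's miRNA table for GRCm38.p6 held a mature sequence for 7 of the 9 names (miR-709 and miR-1946a had none). They are shown 5′ to 3′ with the seed in capitals, because the names alone hide how alike some are.
mmu-miR-3473b: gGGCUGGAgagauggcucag
mmu-miR-3473e: gGGCUGGAgagauggcucgua
mmu-miR-3473f: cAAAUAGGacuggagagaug
mmu-miR-5128: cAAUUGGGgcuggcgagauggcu
mmu-miR-706: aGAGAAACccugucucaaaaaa
mmu-miR-1946b: gCCGGGCAgugguggcacaugcuuuu
mmu-miR-1195: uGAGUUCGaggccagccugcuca
Only miR-3473b and miR-3473e share a seed, GGCUGGA. The other 5 seeds all differ. The 7 sequences are 20 to 26 bases long, with a median of 22, which is also the median of the 566 other names with a sequence. Their median GC content was 60.9%, with a range of 36.4% (miR-706) to 65.0% (miR-3473b), beside a median of 50.0% over the other names.

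Sequence in common extends past the seed, and to names with other seeds. In the next lines capitals mark the stretch each holds in common with miR-3473b, with miR-3473a, a name of the same number outside the 9, added for comparison.
mmu-miR-3473e: GGGCUGGAGAGAUGGCUCgua
mmu-miR-3473f: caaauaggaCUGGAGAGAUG
mmu-miR-5128: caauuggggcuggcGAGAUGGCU
mmu-miR-3473a: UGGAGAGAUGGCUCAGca
The first 18 bases of miR-3473b and miR-3473e are identical, so a read trimmed to that length matches both names. The stretch shared with miR-3473b was 16 bases for miR-3473a, 11 for miR-3473f and 9 for miR-5128. miR-706, miR-1946b and miR-1195 shared at most 5 bases in a row with miR-3473b on the same strand.

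The arms of the miR-3473b hairpin are complementary without a mismatch. The mature sequence and its reverse complement, in capitals, are joined by a loop of 15 bases.
mmu-mir-3473b hairpin: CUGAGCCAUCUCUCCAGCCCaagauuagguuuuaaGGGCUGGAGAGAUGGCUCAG
All 20 bases of the mature arm can thus pair in 1 run. A paired run here is a stretch of the mature sequence whose exact reverse complement occurs anywhere in the hairpin. No structure was folded and G:U pairs were not counted, so a short run does not mean that a hairpin barely pairs. The longest paired run was 11 of 20 bases for miR-3473f, 6 of 23 for miR-5128 and 5 of 21 for miR-3473e. Its median was 7 over the 528 other names with a hairpin listed, of which 4 were paired over their whole length. A single arm was annotated for all 7 names with a sequence, beside 17.0% of the 566 others.

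In the GRCm38 annotation 5 of the 7 lie within introns of protein-coding genes. miR-3473f (chr1:106546536-106546555, minus strand) lies in an intron of Bcl2, the inhibitor of apoptosis, and miR-706 (chr6:120034290-120034311, minus) in an intron of Wnk1, a kinase of ion transport. miR-5128 (chr2:37688212-37688234, minus) sits in Strbp, an RNA-binding protein gene, and miR-3473e (chr5:31667296-31667316, minus) in Rbks, which encodes ribokinase, each intronic and on the gene's own strand. miR-3473b (chr10:41670774-41670793, plus) lies in an intron of Ccdc162 on the opposite strand. miR-1195 (chr17:70860558-70860580, minus) lies opposite an intron of the pseudogene Gm9320, and miR-1946b (chr9:21613452-21613477, minus) overlaps no gene but its own. The series was processed on mm9, so these positions are RefSeq's for the names and not places where reads were seen.

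The mature sequences recur in the mouse transcriptome far from these positions. The whole miR-3473b sequence was found, on either strand, in GENCODE M21 transcripts of 726 of 53248 genes other than miRNA genes, and the whole miR-706 sequence in 450. miR-1946b was found in 1 gene and miR-3473e, miR-3473f, miR-5128 and miR-1195 in 0. In contrast, 0.530% of the 566 other names were found whole in more than 10 genes. Spliced transcripts were searched, so the introns that hold miR-3473e, miR-3473f and miR-5128 were not covered. Trimmed or mismatched reads need less than the whole sequence, so any stretch of 16 bases was searched as well, a length chosen after the data had been seen. In the lines below capitals mark the 16 bases that recurred most.
mmu-miR-706: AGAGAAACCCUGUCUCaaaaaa
mmu-miR-1195: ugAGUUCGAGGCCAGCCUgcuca
mmu-miR-1946b: gccGGGCAGUGGUGGCACAugcuuuu
mmu-miR-3473b: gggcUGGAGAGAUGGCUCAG
These stretches were present in 1801 genes for miR-706, 1291 for miR-1195, 160 for miR-1946b and 1173 for miR-3473b. Counting every 16-base stretch of each name, miR-706 matched 2097 genes, miR-3473b 1455, miR-1195 1382, miR-3473e 1197, miR-1946b 309, miR-5128 81 and miR-3473f 3. The median was 1197 genes over the 7 names and 1 gene over the 566 others. More than 100 genes were matched by 5 of the 7 names and by 7 of the 566 others (1.24%). miR-3473f, with the sparsest matches, shows that recurrence is not shared by all.

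**Figure D1:**
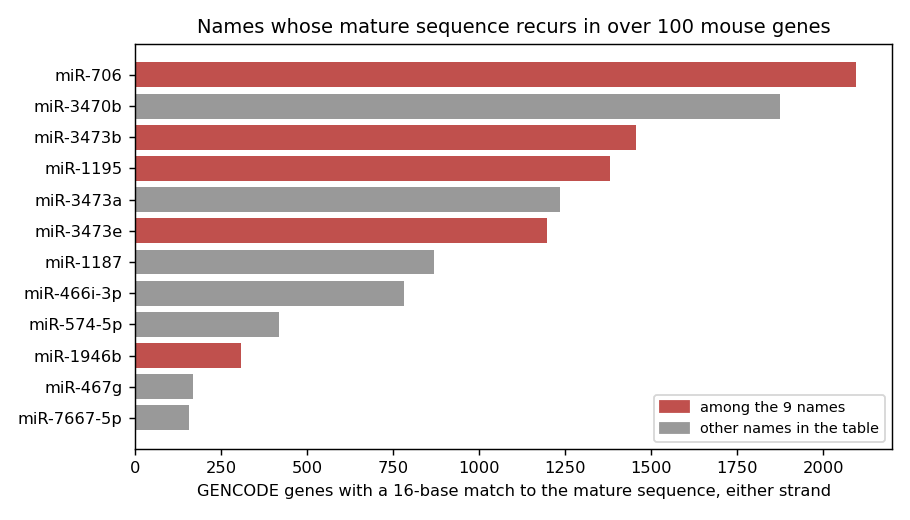
Bars give, for each of the 12 names that match more than 100 genes, the number of GENCODE M21 genes whose transcripts hold any 16-base stretch of the mature sequence on either strand. Of the 12 bars, 5 are names of the group, from 2097 genes (miR-706) to 309 (miR-1946b), and miR-3470b, which is not in the group, stands between miR-706 and miR-3473b.

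Promoters were searched as well. Of 32851 RefSeq windows from 250 bases before to 50 bases after a gene start, searched on both strands, 32 (0.0974%) held the whole miR-3473b sequence and 2 (0.00609%) the whole miR-706 sequence. Any 16-base stretch was found in 67 windows (0.204%) for miR-3473b, in 60 (0.183%) for miR-3473e and in 34 (0.103%) for miR-706. A whole-sequence match in at least 1 window was found for 2 of the 7 names (28.6%) and for 4.24% of the 566 others, whose highest number of windows was 11.

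The libraries differed in depth with genotype. The san:san libraries held 185901, 160588 and 126098 counts and the WT libraries 12447, 28884 and 21754, so the shallowest san:san library was 4.37 times as deep as the deepest WT library, and depth and genotype cannot be told apart in this design. A single count was worth 5.38 to 7.93 CPM (counts scaled to a common library size) in san:san and 34.6 to 80.3 CPM in WT. Summed macrophage and myeloid markers (6 miRNAs, 0 of them missing from any library) made up 9.2% to 10.9% of san:san counts and 4.82% to 5.62% of WT counts. Erythroid markers (3 miRNAs, 0 missing) made up 9.3% to 11.0% and 2.31% to 3.85%, and the lymphocyte miRNA miR-150-5p 1.38% to 1.92% and 0.409% to 0.492%. These summed shares moved with genotype, and their part in the values below was not tested. Not every marker did so. Per 10000 counts, miR-142a-3p held 444 to 699.9 in san:san and 69.1 to 209 in WT. For miR-21a-5p these were 175 to 209 and 102 to 141. The genotypes overlapped for miR-223-3p, miR-142a-5p, miR-146a-5p and miR-155-5p. They also overlapped for the erythroid miR-144-3p, but not for miR-451a, miR-486a-5p or miR-150-5p. In bulk exosome RNA, fewer vesicles from a cell type and less of an RNA per vesicle cannot be told apart.

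Together the 9 names took up a far smaller share of each san:san library than of any WT library. They had 32, 22 and 31 counts in the san:san libraries, against 137, 349 and 247 in the WT libraries. As a share this was 0.0172%, 0.0137% and 0.0246% of san:san counts and 1.1%, 1.21% and 1.14% of WT counts. The exact 95% binomial intervals spanned 0.00859% to 0.0349% over the san:san libraries and 0.925% to 1.34% over the WT libraries, so the genotypes lay far apart while libraries within each lay close. The mean shares were 0.0185% ± 0.00555 in san:san and 1.15% ± 0.0549 in WT (SD, n = 3 each). Over pooled counts the share was 64.6-fold lower in san:san, with an exact 95% counting interval of 51.6 to 81.9. At the WT share, the san:san libraries would have held 5491 counts of the 9 names, and 85 were seen. Such intervals cover counting error only, and reads were not corrected for PCR copies.

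**Figure D2:**
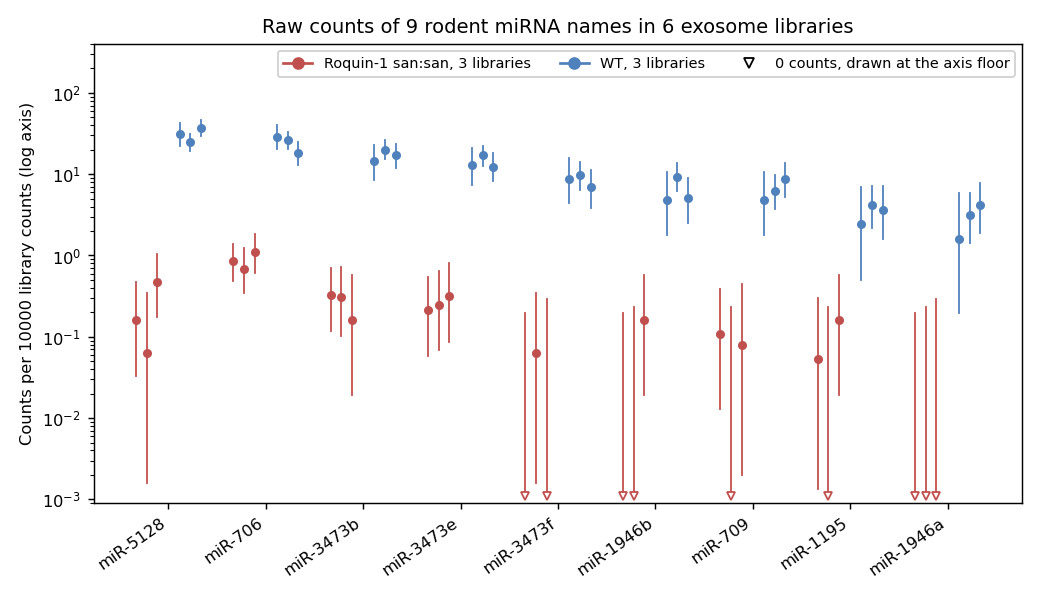
Points are raw counts per 10000 library counts (log axis) of each name in the 3 san:san libraries (red, left) and the 3 WT libraries (blue, right), with exact 95% Poisson intervals as lines and open triangles for 0 counts. For all 9 names every WT point lies above every san:san point.

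For each of the 9 names all 3 san:san libraries lay below all 3 WT libraries in share of counts. This is the pattern that chose them, and it held for 20.8% of the 707 names in the table. Among the 254 names that passed the filter on low counts it held for 31.1%, in TMM-scaled CPM. The single-library 95% intervals of the genotypes met for miR-1946a and miR-1195, the rarest, and stayed apart for the others. How often such intervals stay apart over all names was not computed. The 9 were chosen on this contrast, so the separation supports nothing about them. All 9 passed the filter on low counts (129 CPM in 3 libraries) and did so through WT alone, since 0 of them reached that level in any san:san library.

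miR-5128, from the Strbp intron, had the highest WT total. It had 3, 1 and 6 counts in the san:san libraries, against 39, 72 and 81 in the WT libraries. Per 10000 counts, the san:san libraries held 0.161, 0.0623 and 0.476 and the WT libraries 31.3, 24.9 and 37.2. The third san:san library was the highest of its genotype, and the genotypes did not overlap. The pooled share was 144-fold lower in san:san (exact 95% interval 76.5 to 305), and 264-fold lower without the third san:san library.

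miR-706, whose sequence recurs most among transcripts, had the highest san:san counts of the group. Its counts were 16, 11 and 14 in the san:san libraries, against 36, 76 and 40 in the WT libraries. Per 10000 counts these were 0.861, 0.685 and 1.11 in san:san and 28.9, 26.3 and 18.4 in WT. The genotypes did not overlap on either scale. The pooled share was 27.8-fold lower in san:san (19.6 to 40.2). This interval lies below those of miR-5128, miR-3473f and miR-1946b and overlaps those of miR-3473b, miR-3473e, miR-709, miR-1946a and miR-1195.

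miR-3473b and miR-3473e, with the shared seed, ran side by side in WT. miR-3473b had 6, 5 and 2 counts in the san:san libraries, against 18, 58 and 37 in the WT libraries. miR-3473e had 4, 4 and 4 in san:san, against 16, 49 and 27 in WT. In each WT library miR-3473e stood at 0.889, 0.845 and 0.73 of the miR-3473b count. In the san:san libraries, on few counts, it stood at 0.667, 0.8 and 2.0. Over all libraries of a genotype it stood at 0.923 in san:san and 0.814 in WT. Pooled shares were 65.1-fold lower in san:san for miR-3473b (36.6 to 126) and 57.4-fold lower for miR-3473e (31.3 to 115), and these intervals overlap. Because 18 bases are common to both, how many reads were counted under both names was not tested.

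miR-3473f, the Bcl2 intron name that shares 11 bases with miR-3473b, was all but confined to WT. It had 0, 1 and 0 counts in san:san, against 11, 28 and 15 in WT. Its share was 405-fold lower in san:san, but 1 count leaves an interval of 69.6 to 16270.2. Without the first san:san library it was 245-fold lower, and without the second, which holds that count, the lower limit was 70.0. It stood at 0.611, 0.483 and 0.405 of miR-3473b in the WT libraries, against 1 count beside 13 over the san:san libraries.

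The remaining 4 names were rarer. miR-709 had 2, 0 and 1 counts in san:san, against 6, 18 and 19 in WT (107-fold lower in share, 34.4 to 541). miR-1946b had 0, 0 and 2 in san:san, against 6, 27 and 11 in WT (165-fold lower, 43.0 to 1403), with both san:san counts in a single library. miR-1195 had 1, 0 and 2 in san:san, against 3, 12 and 8 in WT (57.4-fold lower, 17.4 to 299). miR-1946a was not seen in san:san, where a count of 0 allows up to 3 counts over the 472587 of that genotype. Its WT counts were 2, 9 and 9. Against that floor its pooled share was at least 49.9-fold lower in san:san, a bound that leaves out the counting error of WT, and the exact 95% interval of the ratio begins at 37.0 (22.4 without the first san:san library, 24.4 without the second). For each of these 4 names the lowest WT count was above the highest san:san count. With so few san:san counts single libraries moved the folds: without the first san:san library the miR-709 share was 195-fold lower in san:san and without the second 70.9-fold, and miR-1195 was 126-fold lower without the third and 37.9-fold without the second. miR-1946b was 100-fold lower without the first san:san library and 109-fold without the second, and without the third its ratio has a lower limit of 62.8.

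The order of the 9 names within a library differed with genotype. In WT, miR-5128 led in libraries 1 and 3 (28.5% and 32.8% of the summed counts of the group) and miR-706 in library 2 (21.8%, with miR-5128 at 20.6%). miR-3473b and miR-3473e came next, in that order, in all 3 WT libraries. In san:san, miR-706 led in all 3 libraries with 50.0%, 50.0% and 45.2%, against 26.3%, 21.8% and 16.2% in WT. miR-5128 made up 9.38%, 4.55% and 19.4% in san:san and 28.5%, 20.6% and 32.8% in WT. The ratio of miR-706 to miR-5128 was 5.33, 11.0 and 2.33 in the san:san libraries, against 0.923, 1.06 and 0.494 in the WT libraries, on 10 miR-5128 counts over all of san:san.

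**Figure D3:**
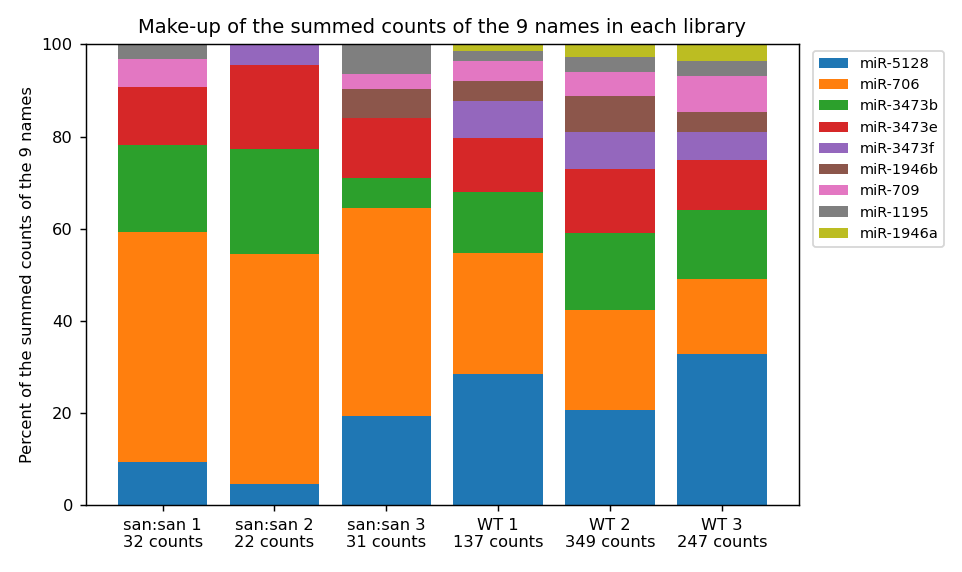
Bars show the percent of the summed counts of the 9 names held by each name, in the 3 san:san libraries (left, 22 to 32 counts each) and the 3 WT libraries (right, 137 to 349 counts each). miR-706 fills 45.2% to 50.0% of each san:san bar and 16.2% to 26.3% of each WT bar.

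The spread within WT was not used to choose the names. The variance of a name's counts over the 3 WT libraries, divided by the Poisson variance at the same depths, had a median of 1.02 and ran between 0.363 (miR-1195) and 3.11 (miR-5128). The median was 1.36 over the 132 other names with WT totals of 20 to 192, the range of the group. miR-706 (2.37) and miR-1946b (2.15) came next. Each ratio rests on 3 libraries, too few to tell such values from 1, the value that counting alone gives on average. miR-706 was lowest in the third library, at 18.4 per 10000 beside 28.9 and 26.3. miR-1946b was high in the second library, at 9.35 beside 4.82 and 5.06.

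In edgeR's fit over all libraries, with TMM scaling, the values of the group ranked among the lowest of the 254 names tested. miR-3473f ranked lowest, miR-1946a 2nd, miR-5128 5th, miR-1946b 6th, miR-709 9th, miR-3473b 12th, miR-3473e 15th, miR-1195 17th and miR-706 25th. The fitted log2 fold change, san:san over WT, was -6.51 for miR-5128 (-7.4 without the third san:san library, -7.09 without scaling factors). It was -5.35 for miR-3473b, -5.16 for miR-3473e and -4.20 for miR-706. The fitted values of the other 5 rest on 0 to 3 san:san counts and depend on the prior count. Names outside the group interleave with these ranks, among them miR-149-3p (3rd) and miR-9-3p (4th).

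**Figure D4:**
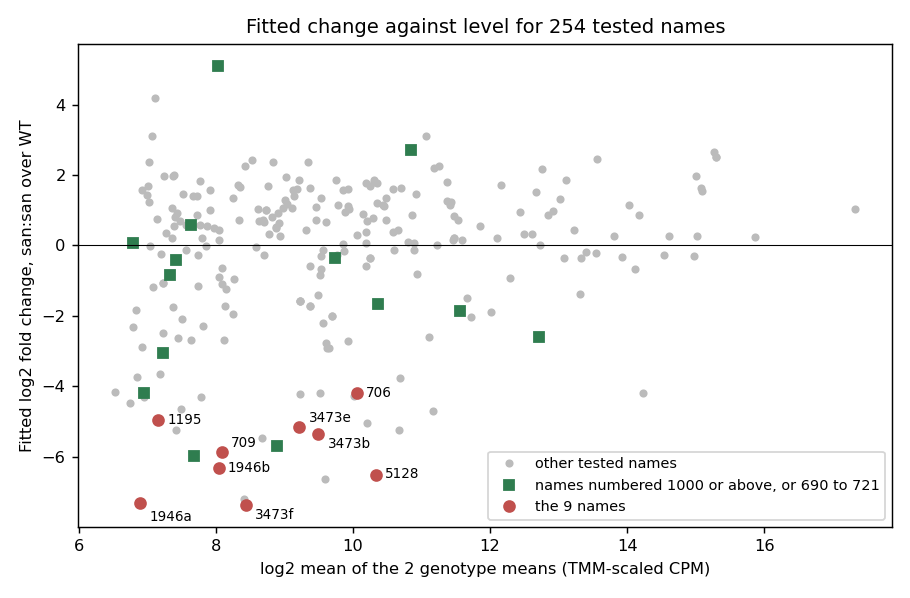
Each point is 1 of the tested names, with the log2 mean TMM-scaled CPM of the genotype means on the x axis and the fitted log2 fold change, san:san over WT, on the y axis. The 9 names (red, labelled by number) lie at or below -4.20, where names numbered 1000 or above or close to miR-706 and miR-709 (green) and other names (grey) also occur.

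Names outside the group whose level over the 6 libraries ran most like the mean of the 9 were miR-139-3p (Pearson r = 0.998 on log2 CPM), miR-23a-5p (0.997), miR-365-2-5p (0.996), miR-125a-3p (0.995) and miR-1249-5p (0.995). These r values share the same 6 libraries and mainly restate the genotype split and its depth gap. miR-139-3p had 1, 1 and 1 counts in san:san, against 3, 7 and 6 in WT. miR-23a-5p, the minor arm of the miR-23a hairpin, had 28, 28 and 30 in san:san, against 273, 531 and 457 in WT.

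The 3 names that share a number with the group but lie outside it were rare. miR-3473a, which has 16 bases in common with miR-3473b, had 1, 0 and 0 counts in san:san, against 0, 1 and 5 in WT, a share 44.9-fold lower in san:san with an interval of 5.45 to 2067. That rests on the third WT library, without which the ratio was 11.4 with an interval of 0.146 to 898. Without the second WT library it was 69.1, and without the second san:san library 29.7. miR-3473d had 1, 2 and 4 in san:san, against 1, 1 and 2 in WT, 4.28-fold lower in share with an interval of 0.919 to 16.8 that includes no difference. Without the third san:san library it was 7.32-fold lower (1.24 to 50.0). miR-3473g, an Sppl2a intron name, had 3, 5 and 0 counts in san:san and 0 in each WT library. At WT depth a count of 0 allows 0.476 per 10000, above the 0.169 per 10000 seen in san:san, so no difference was detectable. None of these 3 was abundant enough for edgeR's test.

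Other names with recurrent sequences were hardly counted, so they offer little comparison. The 7 names outside the group that match more than 100 genes were miR-3470b, miR-3473a, miR-1187, miR-466i-3p, miR-574-5p, miR-467g and miR-7667-5p, a limit set after the data had been seen. miR-3470b, with 1874 matched genes, had 1, 1 and 0 counts in san:san, against 0, 0 and 3 in WT, the WT counts all in the third library. miR-466i-3p had 1, 1 and 1 in san:san, against 0, 3 and 0 in WT, the WT counts all in the second library. miR-574-5p was the only abundant case, with 164, 151 and 126 counts in san:san, against 25, 25 and 31 in WT. It did not pass edgeR's test (log2 0.07 ± 0.29, SE, adjusted p = 0.829), and its pooled share was 1.38-fold lower in san:san with a counting interval of 1.07 to 1.75. The fitted value uses TMM scaling and the pooled share does not, so their directions can differ. That interval covers counting error only. It matches 418 genes.

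High-numbered names, which were mostly catalogued late, were examined as a list by name alone. Of the 175 names numbered 1000 or above outside the group, 13 were tested. Of these 6 fell and 2 rose in san:san in edgeR's test (Benjamini-Hochberg threshold 0.05), and 5 did not pass. Of the 6 that fell, 4 reached the level of the low-count filter in WT libraries alone (miR-1249-5p, miR-3960, miR-1934-3p and miR-1895), so they could only be tested by being high in WT, and the count of 6 supports nothing about the list. miR-1983 and miR-5099 reached it in all 6 libraries, and miR-1843b-3p, which rose, in san:san alone. Over all 254 names 75 fell (29.5%) and 88 rose (34.6%), and without scaling factors these were 101 and 49. With DESeq2 they were 82 and 64. The median log2 change was -0.83 for the list and 0.30 for all names. Over all names it became -0.29 without scaling factors. The list's median is the value of miR-5110, which was -1.415 without scaling factors. That name too reached the filter's level in WT alone, so the list's median supports nothing about the list.

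miR-1249-5p fell by 5.99 on the log2 scale, with 1, 0 and 1 counts in san:san, against 4, 18 and 12 in WT. On 2 san:san counts that size depends on the prior count and is no bound, and it ran from -6.60 to -5.45 over the alternatives. miR-3960 fell by 5.69, with 3, 3 and 0 in san:san, against 21, 24 and 19 in WT. Both names reached the level of the count filter in WT alone, so no p-value is given for them. The more abundant miR-1983 (log2 -1.66 ± 0.22, SE, edgeR adjusted p = 2.12e-05) and miR-5099 (-1.85 ± 0.26, 3.18e-05) fell less. miR-5099 had 184, 159 and 155 counts in san:san, against 78, 211 and 82 in WT. In the other direction miR-1306-5p rose by 2.70 ± 0.28 (edgeR adjusted p = 2.32e-06), with 380, 461 and 361 in san:san, against 8, 19 and 11 in WT. The other raised name, miR-1843b-3p, had 52, 33 and 94 in san:san and 1 count in all of WT, and fell below the count filter without any single san:san library.

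Of the 14 other names in the block of numbers that holds miR-706 and miR-709, which starts at 690, only miR-690 was tested. It had 272, 244 and 208 counts in san:san, against 211, 386 and 251 in WT, and fell by 2.59 ± 0.22 on the log2 scale (SE, edgeR adjusted p = 3.72e-07). Its whole sequence was found in 4 genes. Its lowest san:san count was 208, where the highest of the 9 names was 16.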

How the data were processed

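RNA of 6 exosome samples was harvested with Trizol and made into miRNA libraries by standard Illumina procedures, per the labels' protocols, which also name an mRNA kit. The submitters' processing notes name mm9. Which aligner, trimming and annotation were used is not given there or in the labels. The authors deposited whole-number counts per mature name and, per sample, a scaled signal named TPM. That signal summed to between 1056890 and 1082573; 100% of its values were whole multiples (within 0.1 reads) of 1 read, and equalled the counts except for 1 name in a WT library. The reads recovered from it were run as an added test and gave 163 calls. The number of columns from other series was 0.

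Shares were taken of each library's total counts, with exact Poisson, binomial and conditional binomial 95% intervals (scipy 1.17.1). Floors use 3 counts per genotype. Genotypes were compared by the quasi-likelihood test of edgeR 4.0.16 in R 4.3.3 with filterByExpr at a minimum of 10, TMM, genotype as the only term, all 6 libraries and Benjamini-Hochberg adjustment over 254 names. On simulated counts for this comparison (common dispersion 0.0358, an average of 262.4 names tested) it recovered 93.5% of 4-fold changes and called 1.28% of unchanged names. The simulation gave every name the same dispersion and balanced rises with falls, so these rates may not hold for the real counts. Each SE is the size of the fitted log2 fold change divided by the square root of edgeR's F statistic. It is not a separately fitted error, and at low counts it can be smaller than counting error. Sequences are RefSeq's (GRCm38.p6), matched by name for 573 of 707 names; transcripts are GENCODE M21 (GRCm38, 139565 transcripts).

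The 9 names, the lists and the tests were chosen with earlier results of these data known. Named are the 9, the names of the same number, the 5 most alike in profile (prior count 2), up to 4 lowered and 4 raised names per list, and the cell type markers. Names with recurrent sequences, miR-149-3p and miR-9-3p were named after their values were seen. Alternatives are given in the closing section.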

Additional observations from a re-analysis of the deposited data

How the results depend on the processing

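The log2 ratio of the mean shares of the 9 names together, san:san over WT, was -5.96. It was -5.90 with identical rows merged, -5.93 with the read totals implied by the per-sample signal, -5.6 with totals that left out the 5 most abundant names, and between -6.21 and -5.78 with a library left out. No fitted log2 fold change of the 9 names changed sign under the edgeR alternatives in which the name was tested. The names were chosen for their WT excess in these same libraries, so that outcome was set in advance and supports nothing. DESeq2 fold changes of the 9 names are not compared here. With a library left out miR-1946a was tested in only 1 of 6 settings, and miR-1195 was not tested without the second WT library. Over all names, 49 were higher without scaling factors in place of 88. With no filter, 21 names numbered 1000 or above were lower in place of 6, 5 of the block around miR-706 in place of 1, and 1 same-number name in place of 0. With a library left out, 1 to 2 names numbered 1000 or above were higher and 4 to 6 lower. miR-1895 and miR-1934-3p, among the 6 lowered, fell below the filter without any single san:san library, and miR-1934-3p also without the second WT library. The replicate numbers pair nothing by label: same-number correlations of deviations were 0.091, -0.052 and 0.244, and the second san:san sample matched the first WT sample better (0.138). With the replicate number as a block, 71 names were lower and 90 higher, and both lists kept their counts (6 and 2, 1 and 0). Depth limits the WT side, where 1 count is worth up to 80.3 CPM.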
